A study of Mus musculus with 2 samples.

Results

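The clustered replication-dependent histone genes encode the linker histone H1 and the core histones H2A, H2B, H3 and H4 that package newly copied DNA. They were taken as the protein-coding genes of RefSeq on mouse chromosomes 1 to 19 whose symbols carry the cluster names, H1f1 to H1f6 and the H2ac, H2bc, H3c and H4c series, and this gave 63 of 20661 genes. They comprised 6 H1, 17 H2A, 16 H2B, 12 H3 and 12 H4 genes. The 63 genes lay in 3 stretches, 22 genes over 328 kb and 31 genes over 404 kb of chromosome 13, and 10 genes over 50.3 kb of chromosome 3. Members more than 500 kb apart were counted as separate stretches. A few further genes with older cluster names fell outside the symbol rule and are described at the end of the results.

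Chromatin immunoprecipitation sequencing was used on nephron progenitors, which form the epithelium of the nephrons in the developing kidney. They came from kidneys of wild-type mice at E16.5 and were cultured before crosslinking with formaldehyde. One library was made with an antibody against Hdac1 (0.5 µg) and one with an antibody against Hdac2 (1 µg), the amounts being those in the names of the deposited lists. Hdac1 and Hdac2 are closely related deacetylases that remove acetyl groups from histone tails within the Sin3, NuRD and CoREST complexes. Both groups share cell type, stage and genotype, and antibody and amount differ together and cannot be told apart. With 1 library per antibody there was no test between them, and no p is given. Read depth is unknown, and the IgG and H3K4me3 control reactions were not analysed here. The deposited lists hold islands, stretches of mm10 enriched in reads, 30182 for Hdac1 and 20307 for Hdac2. The value that the authors gave each island (a p or a q, unstated which) is printed in parentheses and served only to rank islands within their own list. A percentile below is that rank as a percentage of the list, so that 1% means among the strongest 1% of islands. The 6 listed markers of nephron progenitors were Six2, Osr1, Sall1, Wt1, Eya1 and Gdnf. All 6 had islands of both antibodies at a gene end, against 32.4% of all protein-coding genes. Their strongest Hdac2 islands ranked from 0.571% at Sall1 to 70.4% at Osr1 and 86.8% at Eya1. Islands do not measure expression.

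Replication-dependent histone genes are short, mostly lack introns, and are transcribed mainly in S phase, when new nucleosomes are needed. Their mRNAs end in a stem-loop instead of a poly(A) tail. Npat, a target of the cyclin E kinase, activates them in nuclear bodies formed at the clusters, and many H2A and H2B genes are arranged head to head around a common promoter. A few members are not S-phase genes of dividing somatic cells: H1f6 encodes H1t, and H2ac1 and H2bc1 encode TH2A and TH2B, histones made in the male germ line.

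The sequences in front of the genes are shown first, because the members without Hdac1 or Hdac2 islands at their own start are best compared with neighbours of the same type. They are RefSeq sequence of GRCm38.p6, the assembly of mm10. Capitals mark any match, on either strand, to the TATA box letters TATAAA, the CCAAT box letters CCAAT, the octamer of H2B promoters ATTTGCAT, the H1 box AAACACA, or GGTCCG, the core of the H4 element bound by Hinfp. Matches can touch or overlap, and a match is a description and not a bound site. First come the stretches between the starts of 2 head-to-head pairs, on the plus strand, at chr13:21716184-21716411 for the somatic pair H2bc13 and H2ac13 and chr13:23934157-23934436 for the germ-line pair H2bc1 and H2ac1.
H2bc13 to H2ac13: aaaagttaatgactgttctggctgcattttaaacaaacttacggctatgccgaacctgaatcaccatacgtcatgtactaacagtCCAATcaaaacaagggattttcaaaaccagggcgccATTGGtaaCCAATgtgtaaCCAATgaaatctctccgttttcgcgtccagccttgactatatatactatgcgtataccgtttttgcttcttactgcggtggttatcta
H2bc1 to H2ac1: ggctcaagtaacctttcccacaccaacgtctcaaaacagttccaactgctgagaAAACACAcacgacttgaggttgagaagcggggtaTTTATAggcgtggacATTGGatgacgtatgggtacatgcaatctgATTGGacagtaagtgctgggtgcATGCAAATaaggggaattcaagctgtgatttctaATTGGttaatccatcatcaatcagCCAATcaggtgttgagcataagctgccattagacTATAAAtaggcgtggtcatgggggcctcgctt

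Next are the 150 bases before the start, on the strand of the gene, for an H4 gene with both islands (H4c12, chr13:21750554-21750703, minus strand), the H4 genes with Hdac1 alone (H4c4, chr13:23581418-23581567, plus strand, and H4c3, chr13:23698459-23698608, minus strand), an H3 gene with both (H3c10, chr13:21717478-21717627, plus strand), the H3 gene with Hdac1 alone (H3c11, chr13:21783398-21783547, minus strand), a somatic H1 gene with both (H1f2, chr13:23738657-23738806, plus strand) and the germ-line H1 gene (H1f6, chr13:23695661-23695810, plus strand). These genes were chosen for display after their islands had been seen.
H4c12: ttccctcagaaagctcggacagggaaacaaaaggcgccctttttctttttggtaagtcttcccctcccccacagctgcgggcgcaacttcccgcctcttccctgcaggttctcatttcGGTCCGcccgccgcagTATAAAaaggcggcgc
H4c4: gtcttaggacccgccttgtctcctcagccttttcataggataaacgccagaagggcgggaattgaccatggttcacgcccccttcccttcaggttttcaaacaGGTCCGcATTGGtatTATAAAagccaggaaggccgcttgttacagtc
H4c3: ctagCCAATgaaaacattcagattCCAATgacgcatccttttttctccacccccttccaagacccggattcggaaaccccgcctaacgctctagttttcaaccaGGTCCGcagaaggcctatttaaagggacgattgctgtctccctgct
H3c10: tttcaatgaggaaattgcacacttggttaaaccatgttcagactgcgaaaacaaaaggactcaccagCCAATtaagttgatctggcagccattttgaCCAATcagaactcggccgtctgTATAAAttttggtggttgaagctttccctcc
H3c11: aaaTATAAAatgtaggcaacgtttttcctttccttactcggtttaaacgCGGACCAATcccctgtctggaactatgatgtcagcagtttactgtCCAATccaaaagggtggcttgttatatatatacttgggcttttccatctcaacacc
H1f2: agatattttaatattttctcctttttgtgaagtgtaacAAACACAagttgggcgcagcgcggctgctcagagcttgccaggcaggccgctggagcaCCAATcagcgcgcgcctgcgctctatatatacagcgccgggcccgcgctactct
H1f6: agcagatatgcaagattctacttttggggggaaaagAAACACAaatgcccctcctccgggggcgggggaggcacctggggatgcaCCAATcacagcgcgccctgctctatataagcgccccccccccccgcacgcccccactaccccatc

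Nearly every clustered histone gene carried Hdac1, and most carried Hdac2 as well. An Hdac1 island lay within 1 kb of a gene end at 61 of 63 members (96.8%, 95% Wilson interval 89.1 to 99.1%), where 62.6% of all protein-coding genes had one. For Hdac2 the count was 57 of 63 (90.5%, interval 80.7 to 95.6%), against 33.4% of all genes. The same 57 members had both, against 32.4% of all genes. Among genes no longer than 2 kb, which 58 of the members are, the shares were lower still, 17.9% for Hdac1, 10.3% for Hdac2 and 9.38% for both. Intervals cover counting error only and treat genes as separate, although neighbours share islands, so the islands themselves were counted next.

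**Figure D1:**
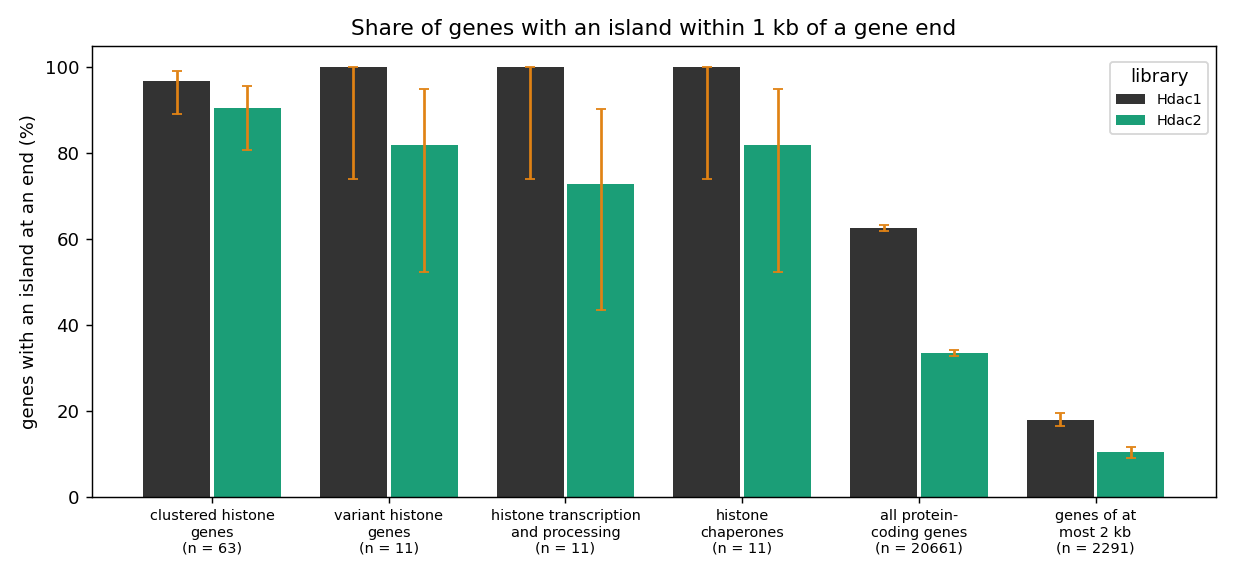
Share of genes (y axis, percent) with an Hdac1 (dark) or Hdac2 (green) island within 1 kb of a gene end, in the clustered histone genes, 3 lists of related genes, all protein-coding genes of chromosomes 1 to 19 and those of at most 2 kb; error bars are 95% Wilson intervals. The clustered histone genes reached 96.8% and 90.5%, against 62.6% and 33.4% of all genes.

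The 61 genes rested on 32 distinct Hdac1 islands and the 57 genes on 30 distinct Hdac2 islands. Of the Hdac1 islands 12 reached 1 member each and 20 reached 2 or more, and up to 5 members sat on 1 island. The island at chr13:23570401-23577000 (6.6 kb, 2.41e-124 for Hdac1) reached H2ac8, H2bc8, H2bc7, H2ac7 and H3c4, and an Hdac2 island of 5.6 kb (1.45e-27) reached the same 5 genes. Islands at members had a median width of 3.6 kb for Hdac1 (range 1.4 to 9.8 kb) and 2.7 kb for Hdac2 (range 1.2 to 5.8 kb), while all islands at gene ends had medians of 2.2 kb and 2.4 kb. Islands with a single member were narrower, with medians of 2.4 kb and 2.0 kb, than those with 2 or more, with medians of 4.6 kb and 3.6 kb. A wider island can reach more neighbouring genes, so width and the number of members reached are not independent.

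Most Hdac1 islands at members overlapped an Hdac2 island, 29 of 32 (90.6%, interval 75.8 to 96.8%), beside 49.0% of the Hdac1 islands at any gene end. In the other direction all 30 Hdac2 islands at members overlapped an Hdac1 island, which is near the share over Hdac2 islands at any gene end, 96.9%. At H3c13 and H2bc18 on chromosome 3 both lists gave 1 identical outline, chr3:96266801-96270400, with values of 7.19e-69 for Hdac1 and 1.55e-11 for Hdac2. The antibodies drew the same outline to within 200 bp at H2bc13, H2ac13 and H3c10 and at H2bc9 and H3c7. At H2ac12 and H2bc12 the outlines differed more, where a 1.4 kb Hdac2 island lay inside an Hdac1 island of 4.0 kb.

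**Figure D2:**
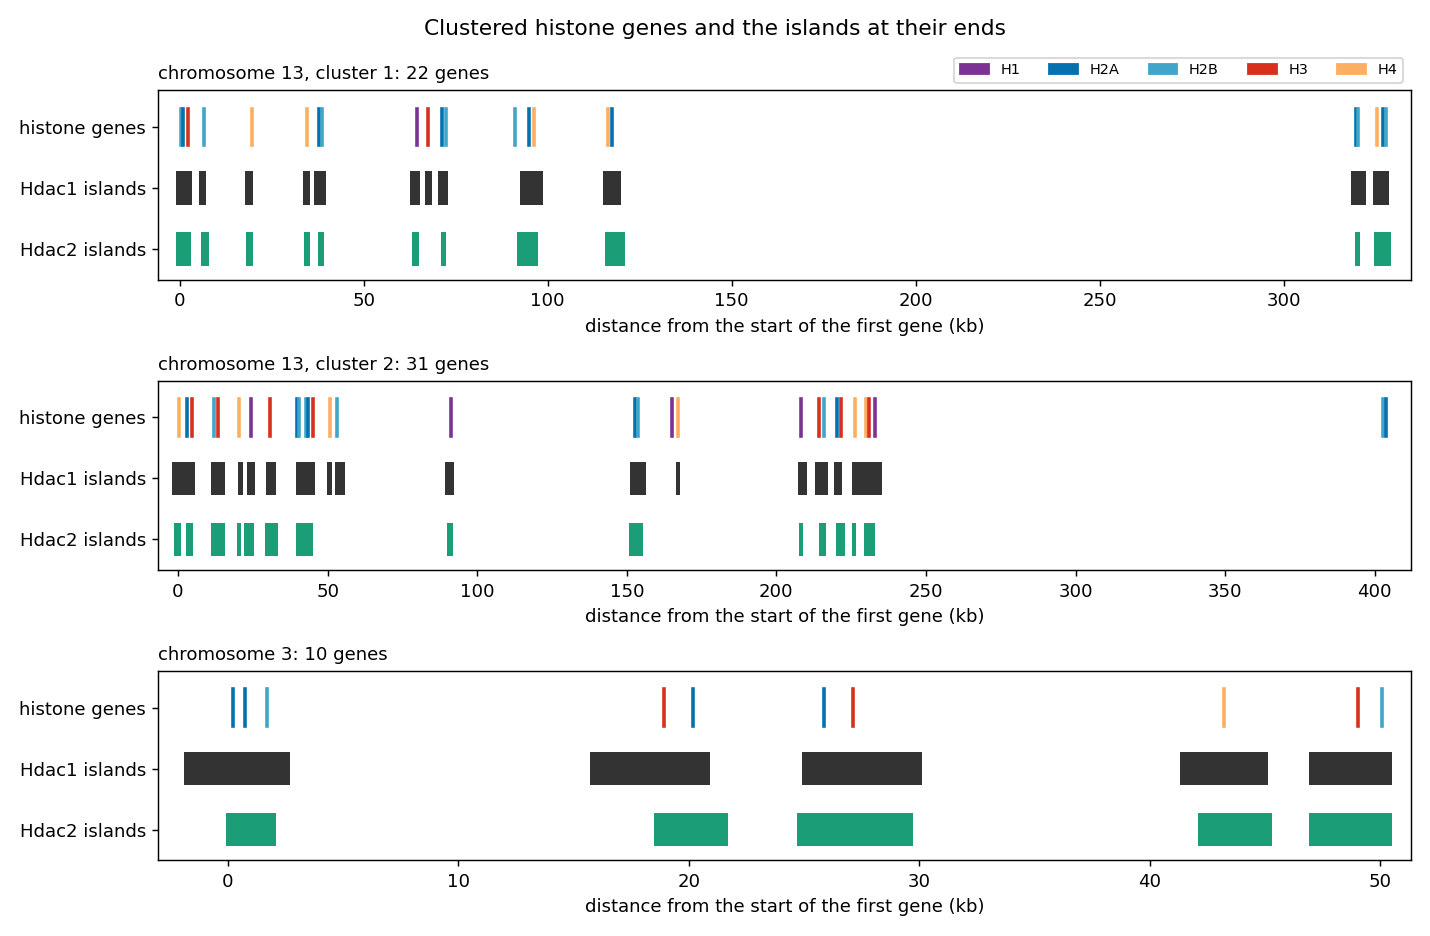
The 3 stretches of clustered histone genes, with distance from the start of the first gene on the x axis (kb), genes as ticks coloured by type, and the islands within 1 kb of a gene end as bars, Hdac1 above Hdac2. Islands elsewhere in the stretches are not drawn. The bars therefore lie at genes by construction. The H2A and H2B pair at the right end of the 31-gene stretch has none.

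Within the clusters, islands covered far more of the sequence near the genes than of the sequence between them. In the 22-gene stretch, chr13:21715711-22043658, Hdac1 islands covered 81.5% of the sequence within 1 kb of a member's end and 10.4% of the rest, and Hdac2 islands covered 60.5% and 4.35%. In the 31-gene stretch, chr13:23531044-23934913, the Hdac1 shares were 79.2% and 4.54% and the Hdac2 shares 55.8% and 2.87%. On chromosome 3, chr3:96219885-96270192, they were 82.9% and 18.9% for Hdac1 and 81.2% and 9.61% for Hdac2. Flanks as long as each stretch were covered less than the whole stretch: over the 22-gene stretch as a whole Hdac1 covered 19.2%, against 4.24% and 1.2% of its flanks. The left flank of the 31-gene stretch came closest to its stretch, with 13.2% against 16.2% for Hdac1 and 10.1% against 11.1% for Hdac2. Of the nearest protein-coding genes outside, Olfr1359 and Vmn1r188 around the 22-gene stretch, Btn2a2 to the left of the 31-gene stretch and Fcgr1 to the right on chromosome 3 had no island of either antibody at an end. Scgn, to the right of the 31-gene stretch, had Hdac1 alone, and Bola1, to the left on chromosome 3, had both.

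Islands lay over the starts of the genes and usually over the whole gene. A transcription start could be placed for 57 members with a single RefSeq promoter entry; H2bc6 has more than one entry, and H3c7, H2bc4, H3c1, H2bc21 and H4c14 were not matched. The start lay inside an Hdac1 island at 54 of 57 members (94.7%) and inside an Hdac2 island at 51 (89.5%), against 60.5% and 31.3% of the 16456 genes with an entry. At 10 members that had an Hdac1 island to themselves, the island reached a median of 917 bp upstream of the start (range 375 to 1633 bp) and 1192 bp downstream (range 566 to 2424 bp). Over the 10 such members for Hdac2 the medians were 589.5 bp upstream and 974.5 bp downstream. Since 58 members span only 375 to 911 bp, 55 of these lay wholly inside Hdac1 islands and 47 wholly inside Hdac2 islands. Island edges are set in steps of 200 bp. The islands at members were all 1.2 kb wide or more, so starts and 3′ ends of genes this short cannot be told apart.

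**Figure D3:**
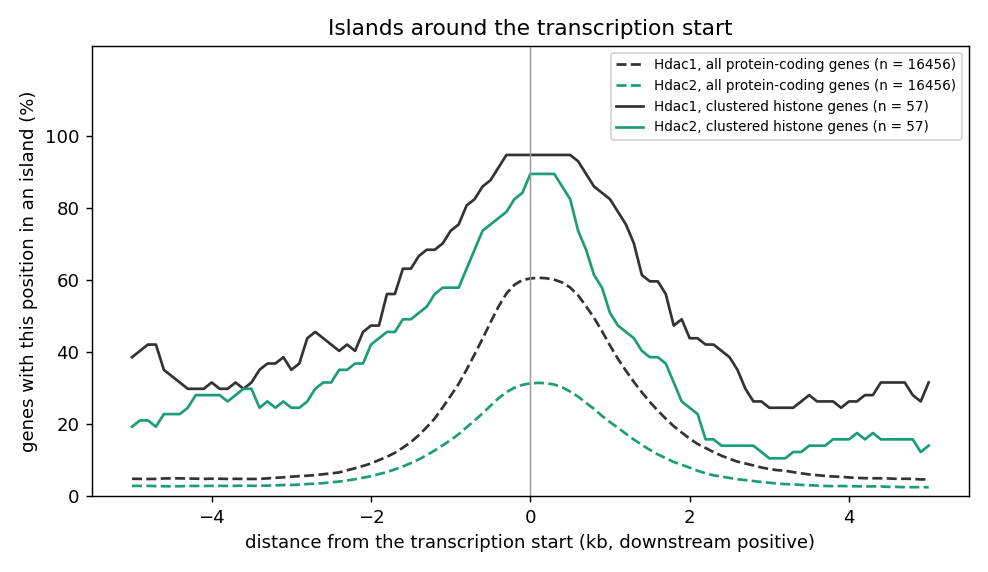
Percent of genes (y axis) in which a given position lies inside an island, by distance from the transcription start (x axis, kb, in the direction of transcription), for Hdac1 (dark) and Hdac2 (green), in 57 clustered histone genes (solid) and 16456 protein-coding genes (dashed). Solid lines stand at 94.7% and 89.5% at the start and lie above the dashed line of the same antibody over the whole range; positions away from a start can fall in a neighbouring histone gene's island.

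Among members whose start could be placed, 9 H2A and H2B pairs had starts that face each other with at most 1 kb between them. Genes without a matched entry, such as H2bc4 beside H2ac6, could not enter. Of the 9 pairs, 8 shared 1 Hdac1 island and 1 Hdac2 island over the common promoter. The distance between the starts ran from 163 to 280 bp, with a median of 179 bp. At H2bc13 and H2ac13, whose sequence is shown above, the Hdac1 island ran over chr13:21714801-21719000 (4.2 kb, 4.08e-115, 5.13%) and the Hdac2 island over chr13:21714801-21718800 (4.0 kb, 2.80e-18, 5.77%), taking in H3c10 as well. The pair at H2ac15 and H2bc15 shared 3.4 kb of Hdac1 (8.66e-63) and, inside it, 1.4 kb of Hdac2 (3.65e-21, 3.75%). The pair with the widest spacing, the germ-line pair H2bc1 and H2ac1, had neither antibody.

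All 3 germ-line genes lacked an island over the gene itself. H2bc1 and H2ac1, at chr13:23933725-23934156 and chr13:23934437-23934913, were the only 2 of 63 with no island of either antibody at an end. The nearest Hdac1 islands were 4.73 kb and 5.44 kb away, and the nearest Hdac2 islands 17.3 kb and 18 kb. H1f6, at chr13:23695811-23696545, was counted with Hdac1, but that island (1.4 kb, 3.14e-19, 45.2%) lay 856 bp beyond its end, over the neighbouring H4c3, and no island lay on H1f6 itself. Its nearest Hdac2 island was 9.41 kb away. The 3 germ-line members thus had 1 Hdac1 count and no Hdac2 count, whereas the other 60 members had Hdac1 in 60 cases and Hdac2 in 57. Absence from a list says that no island was called at this depth, which is unknown.

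Of the somatic members, 3 had Hdac1 alone. H3c11, an H3 gene, had an Hdac1 island of 2.0 kb (4.28e-38, 27.7%), and its nearest Hdac2 island was 2.12 kb away. H4c4 had an Hdac1 island of 1.8 kb (3.26e-17, 48.9%), the weakest by value at any member, with Hdac2 3.03 kb away, and H4c3 had the 1.4 kb island named above, with Hdac2 11.7 kb away. Members with both antibodies also had Hdac1 islands of such ranks, H4c6 at 45.5% and H2bc6 at 37.9% at one of its ends. All 32 Hdac1 islands at members were in the stronger 50% of their list, as were 9804 of the 11840 Hdac1 islands at any gene end. For Hdac2 the counts were 22 of 30 at members and 2941 of 5976 at any gene end.

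By median rank, H2A genes stood on the strongest Hdac2 islands and H1 genes on the weakest. Ranks are those of the strongest island at each gene. For the 16 H2A genes with Hdac2 the median was 4.69% (range 1.57 to 25.4%), for 15 H2B genes 12.1% (1.57 to 85.0%), for 11 H3 genes 18.3% (1.85 to 58.3%) and for 10 H4 genes 24.1% (1.57 to 98.1%). The 5 H1 genes with Hdac2 had a median of 83.5% (19.3 to 96.9%). For Hdac1 the medians lay closer together, at 9.72% for H2A, 13.1% for H2B, 9.04% for H3, 18.1% for H4 and 20.1% for H1. The ranges overlap between every pair of types, and genes that share an island share its rank. No H2A gene had an Hdac2 island to itself, and the part of sharing in the rank of the H2A genes was not tested.

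**Figure D4:**
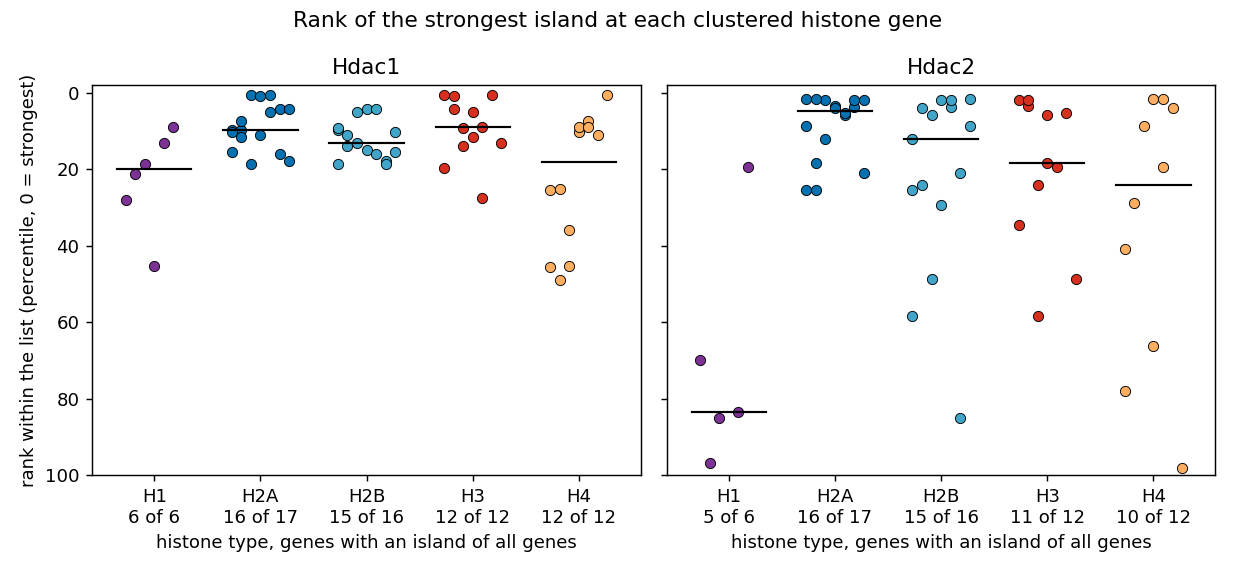
Rank of the strongest island at each member (y axis, percentile of the list, strongest at the top) by histone type, for Hdac1 (left) and Hdac2 (right); each point is a gene, the line is the median, and the labels give the genes with an island. For Hdac2, 4 of 5 H1 genes lie between 70.0% and 96.9%, and all 16 H2A genes lie between 1.57% and 25.4%.

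The linker histone genes H1f5, H1f3, H1f4 and H1f2 had Hdac1 islands in the upper part of their list and Hdac2 islands in the lower part of theirs. All islands at gene ends had median ranks of 23.3% for Hdac1 and 50.6% for Hdac2. Histone transcription and mRNA processing genes, described below, also had a stronger median for Hdac1 (12.4%) than for Hdac2 (87.7%). H1f2 had an Hdac1 island 3.0 kb wide (4.90e-72, 13.1%) and an Hdac2 island 1.2 kb wide (1.72e-05, 83.5%). H1f3 had 2.6 kb (1.01e-49, 21.4%) and 3.2 kb (0.00179, 96.9%), H1f5 had 2.8 kb (1.54e-37, 28.0%) and 2.0 kb (1.04e-06, 70.0%), and H1f4 had 3.2 kb (6.85e-56, 18.8%) and 2.0 kb (2.51e-05, 85.0%). The fifth, H1f1, lay on an Hdac2 island at 19.3% (1.94e-12) that it shared with H4c1 and H3c1. Of these genes H1f2, H1f3 and H1f5 had their islands to themselves. Sharing moved with rank as well: the 11 Hdac2 islands with 1 member had a median rank of 66.2%, and the 19 with 2 or more a median of 8.68%. The 8 core histone islands with 1 member ran from 8.85% at H4c12 to 98.1% at H4c8. Of these 8, H4c12, H4c11, H2bc14, H3c6, H4c6 and H4c2 (8.85 to 66.2%) ranked stronger than all 3 H1 islands with 1 member (70.0 to 96.9%), and H4c14 (78.0%) and H4c8 lay within or beyond the H1 values. The part of sharing in the rank of the H1 genes was not tested.

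**Figure D5:**
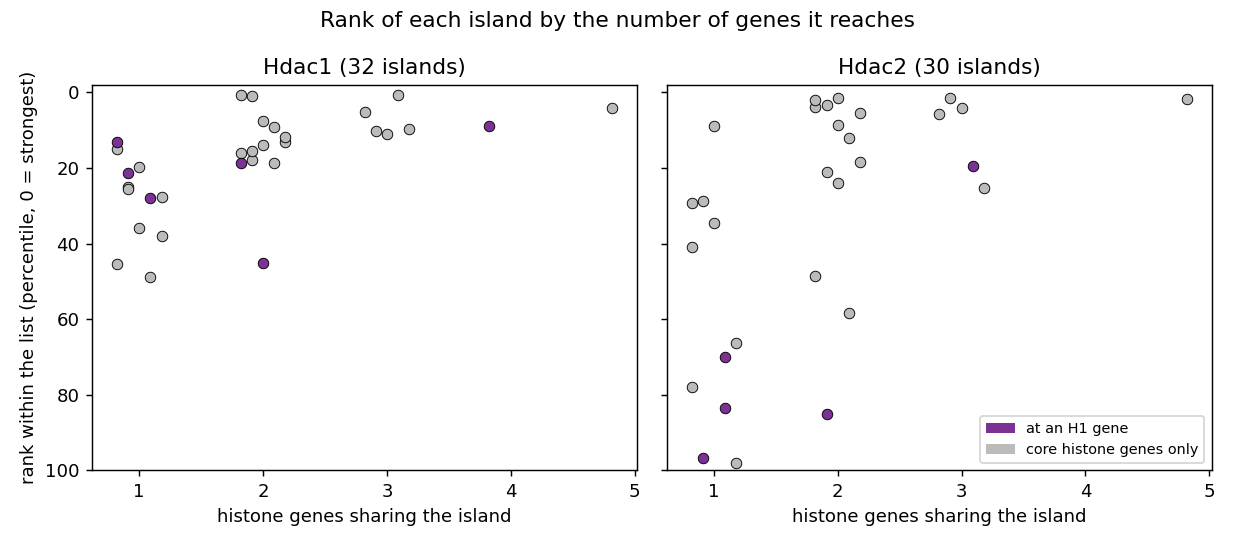
Rank within the list (y axis, percentile, strongest at the top) of each distinct island by the number of clustered histone genes it reaches (x axis; points are spread sideways for display), with islands at an H1 gene in purple. Islands that reach 3 or more members rank at 11.1% or stronger for Hdac1 and at 25.4% or stronger for Hdac2.

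The strongest islands at members lay over an H2A gene together with an H3 or H4 gene, and the weakest of each list lay at an H4 gene alone. The strongest Hdac1 island at any member lay on chromosome 3 over H3c15 and H2ac19, chr3:96235601-96240800 (5.2 kb, 2.26e-235, 0.63%), with an Hdac2 island of 3.2 kb (4.32e-27, 1.92%). Next came chr13:23529001-23536600 over H4c8, H2ac10 and H3c8 (7.6 kb, 3.47e-234, 0.646%). Under this Hdac1 island the Hdac2 signal was split: an island of 2.2 kb over H2ac10 and H3c8 was strong (7.77e-19, 5.30%), and one of 2.4 kb over H4c8 was the weakest Hdac2 island at any member (0.00388, 98.1%). H4c12 had an Hdac1 island at 35.8% (1.8 kb, 2.80e-27) and an Hdac2 island at 8.85% of its list (1.4 kb, 6.83e-16). The broadest Hdac1 island, 9.8 kb at chr13:23756401-23766200 (2.04e-89, 8.87%), covered H4c2, H4c1, H3c1 and H1f1, and 2 separate Hdac2 islands of 1.2 kb and 3.8 kb lay under it.

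H2bc6 has a long annotated span, from 23583670 to 23621124 on the minus strand of chromosome 13, with a RefSeq promoter entry at its upstream end and another inside the span. The upstream end lies within the Hdac1 island (6.85e-56, 18.8%) and the Hdac2 island (2.51e-05, 85.0%) that also cover H1f4, so these islands belong to both genes. The downstream end had an Hdac1 island of 3.6 kb (2.66e-25, 37.9%). An Hdac2 island overlapped 50% of that island without coming within 1 kb of the annotated end, and was therefore not counted.

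Near-identical copies limit how islands can be assigned to single genes. Among the 58 members with a promoter entry, 11 had a 300 bp promoter window (250 bp before to 50 bp after the start) at least 95% identical to that of another clustered histone gene. H4c17 and H4c18 were 99.7% identical, H2ac23 and H2ac24 100%, H3c14 and H3c15 99.6%, H2ac18 and H2ac19 96.5%, and H4c11 and H4c12 95.8%, and H2bc23 was 100% identical to the non-member H4bc24. By its older symbol, Hist1h2br, H4bc24 is an H2B gene. The Hdac2 islands over the copies H2bc23, H2ac23 and H4c17 (5.8 kb) and H4c18 and H2ac24 (5.4 kb) carried the same value, 2.89e-29, which no other of the 20307 Hdac2 islands had, and they were the strongest Hdac2 islands at any member (1.57%). Equal values are common in this list, which holds only 4828 different values, so the tie says nothing about how reads were placed. The Hdac1 islands there differed, with 4.01e-82 over 6.2 kb and 5.26e-97 over 4.8 kb. How reads that fit several copies were placed is unknown here, so the islands of such copies cannot be told apart with certainty.

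Promoter letters followed histone type. CCAAT on either strand was present in all 6 H1, 17 H2A, 14 H2B and 10 H3 windows matched and in 3 of 11 H4 windows, against 38.9% of the windows of 16456 protein-coding genes, all 300 bp long. GGTCCG was present in 10 of 11 H4 windows and 10.8% of all windows, and AAACACA in 5 of 6 H1 windows and 6.23% of all. ATTTGCAT was found in 6 H2A and 6 H2B windows, in head-to-head pairs often the same match, and in 1.73% of all windows. TATAAA was found in 34 of 58 members (58.6%) and 13.5% of all. The 3 H4 windows with CCAAT were those of H4c4 and H4c3, without Hdac2, and of H4c1, with both antibodies; H4c12 and the other H4 genes lack it. H4c4 and H4c3 hold GGTCCG as H4c12 does, and all 3 germ-line members hold CCAAT and AAACACA.

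Members without Hdac2 had promoters poorer in CpG for their base composition than most members with both islands. The observed to expected CpG ratio had a median of 0.529 over the 6 members without Hdac2 (range 0.450 to 0.690) and 0.795 over 52 matched members with both (range 0.253 to 1.31), and the ranges overlap. The lowest ratio, 0.253, belonged to H2bc15, which had both islands, and the germ-line members had 0.450 (H1f6), 0.455 (H2bc1) and 0.549 (H2ac1). The median over all protein-coding genes was 0.595, and over the members 0.748 at a lower GC content (45.3% against 56.7%).

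Related genes outside the clusters (variant histones, histone gene transcription and mRNA processing, and histone chaperones) also carried Hdac1. In each list the median rank of the Hdac2 islands was weaker than at the clustered genes. All 11 genes of variant histones, which are made outside S phase too, had Hdac1 and 9 had Hdac2. H3f3a, one of the genes of a replacement H3 histone, had a 5.6 kb Hdac1 island (1.30e-179, 1.52%) and a 3.6 kb Hdac2 island (5.64e-18, 6.06%). Cenpa, the centromeric H3 variant gene, and H2aj had Hdac1 alone. Of 11 genes for histone gene transcription and mRNA processing, 11 had Hdac1 and 8 had Hdac2, with no Hdac2 at Slbp, which encodes the protein that binds the mRNA stem-loop, nor at Casp8ap2 and Zfp473. Npat itself had a 2.8 kb Hdac1 island (5.33e-73, 12.7%) and a 2.2 kb Hdac2 island (0.0294, 99.6%). Of 11 histone chaperone genes all had Hdac1 and 9 had Hdac2, with none at Nasp and Chaf1b. Over all protein-coding genes the shares were 62.6% for Hdac1 and 33.4% for Hdac2. The median rank of the distinct Hdac2 islands was 41.1% for the variants, 87.7% for transcription and processing genes and 79.6% for chaperones, beside 22.5% at the clustered genes and 50.6% over all Hdac2 islands at gene ends. For Hdac1 the medians were 9.37%, 12.4% and 6.91%, beside 15.2% at the clustered genes and 23.3% over all.

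The 4 further protein-coding genes with older cluster symbols were H2bu2 and H2aw on chromosome 11, H4f16 on chromosome 6 and H4bc24 on chromosome 13. All 4 had islands of both antibodies, against 32.4% of all protein-coding genes. The Hdac2 islands ranked at 41.5% at H2bu2 and 85.2% at H2aw. H4f16, an H4 gene, had a 2.6 kb Hdac1 island (4.06e-29, 34%) and a 2.4 kb Hdac2 island (0.00184, 97.0%). H4bc24 lay on the islands of H4c18 and H2ac24. With these 4 genes counted, 65 of 67 genes had Hdac1 and 61 had Hdac2, against 62.6% and 33.4% of all protein-coding genes.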

How the data were processed

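One island list per antibody was analysed. Per the labels' protocols, libraries were made from 500 pg of DNA and amplified for 12 cycles and then further until enough material was obtained, so reads are not independent molecules. Named per the submitters' processing notes are SICER, BWA 0.7.5a, SAMtools 1.3.1, FastQC and bedtools 2.17, with build mm10 and no roles given. The SICER settings, the control library and the handling of reads that fit several places are unknown here. Each deposited island carries the authors' p-value, or possibly a q-value, all below 0.1.

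Files count from 0 with inclusive ends; positions are given 1-based. Genes came from RefSeq GRCm38.p6. Starts and strands came from the RefSeq promoter table (1 entry per gene, the first listed, for profiles and motifs), which matched 58 of 63 members. Islands counted at a gene lay within 1 kb of either end; overlap meant 1 bp or more. Members and lists were chosen with earlier results of these data known. Members described in full are those with the strongest island of each list in each stretch, those with 1 antibody or none, the germ-line genes, genes of the related lists and the nearest flanking genes. The H1 genes, the weakest islands, the pairs, the copies and the other examples were picked after their values were seen. Promoter identity was computed after alignment with free ends, over at least 150 bp. Computation used pandas 2.3.3 and numpy 2.4.6 under Python 3.11.15, with biopython 1.88 for alignment, scipy 1.17.1 for intervals and matplotlib 3.10.9 for plots. The overlap step was tested on simulated lists: it named the same genes as bedtools 2.31.1 among 20661 genes for each library, and found 200 of 200 planted genes.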

Additional observations from a re-analysis of the deposited data

How the results depend on the processing

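The 5 counts (members with Hdac1, with Hdac2 and with both, and distinct islands of each) were recomputed under 11 other settings, and all 55 values stayed within 1.5 times the reported count. Members with Hdac1 ran from 60 to 62 of 63 where all members entered. With the upper 50% of each list there were 61, and 54.4% of all genes had Hdac1. The shares of all genes were 58.0% with a 0 kb window (60 members), 61.1% with 0.5 kb (60) and 68.6% with 5 kb (62). Among the settings in which all 63 members entered, Hdac2 was lowest with the upper 50% of each list, at 47 of 63 members (16.6% of all genes then had Hdac2), and highest with a 5 kb window, at 59 (40.3% of all genes). A window of 0 kb took H1f6 off the Hdac1 count, leaving 60. With the older symbols included the counts were 65 and 61 of 67, and without the germ-line members 60 and 57 of 60. Leaving out members with a near-identical or unmatched promoter, a setting chosen after seeing the data, gave 45 and 41 of 47. When at least 50% of the Hdac1 island had to be covered by Hdac2, 71.9% of the 32 Hdac1 islands overlapped, in place of 90.6%. The share over Hdac1 islands at any gene end was not computed at this setting. The 49.0% given above holds for an overlap of 1 bp or more and is not its counterpart. The background fell from 62.6% to 17.9% for Hdac1 and from 33.4% to 10.3% for Hdac2 with genes of at most 2 kb only; the cause was not tested. No paired analysis was possible because there is 1 library per antibody and no test. Depth is unknown, and intervals cover counting error only.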

Other observations

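The 22-gene stretch on chromosome 13 also holds tRNA genes, and islands away from histone genes lay on them. Of its 12 Hdac1 islands that were not at a member, 8 overlapped a tRNA gene, as did 2 of 4 such Hdac2 islands. The strongest of these for Hdac1 had a value of 7.12e-51 (20.9%). Of 31 tRNA genes in the stretch 13 (41.9%, 95% Wilson interval 26.4 to 59.2%) had Hdac1 over them and 4 (12.9%, interval 5.13 to 28.9%) had Hdac2. The 360 tRNA genes elsewhere on chromosomes 1 to 19 had Hdac1 in 63.1% of cases (interval 58.0 to 67.9%) and Hdac2 in 46.1% (interval 41.0 to 51.3%). The difference was not tested, and this comparison was chosen after the islands had been seen.

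Of 10 protein-coding genes inside the stretches that are not members, 5 had Hdac1 at an end and 3 Hdac2, near the shares over all genes of 62.6% and 33.4%. Zfp184, Slc17a4 and the histone gene H4bc24 had both, Hfe and Pom121l2 had Hdac1 alone, and Prss16, Trim38, Slc17a1, Slc17a2 and Slc17a3 had neither.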
